A study of Mus musculus with 30 samples.

Results

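The genes examined here are 6 STAT transcription factor genes (Stat2, Stat3, Stat4, Stat5a, Stat5b and Stat6) and 3 genes for cytokine feedback inhibitors (Socs1, Socs3 and Cish). They were taken by symbol from the count tables of BM and of adipose tissue macrophages (ATMs), and all 9 were present in both, among 13353 genes for BM and 17059 genes for ATMs. Every recipient was lethally irradiated and, according to the labels, received CD45.2+ BM of Shp2E76K/+;LysM-Cre+ mice mixed in equal parts with CD45.1+ BM of Boy/J mice. The WT group had C57BL/6 recipients with no drug named. The other 4 groups had leptin-deficient Ob/Ob recipients, which from 8 weeks after the transplantation were treated with vehicle alone (Vehicle), with beinaglutide, a GLP-1 receptor agonist, at 3 mg/kg subcutaneously (GLP1RA), with an anti–IL-17A antibody at 200 μg per mouse intraperitoneally (antiIL17A) or both agents (Combo) for 30 days. Mice were 12 to 14 weeks old and of both sexes per the labels, and each group had 3 libraries per tissue. The time this age refers to is unclear. Treated mice were sampled after 8 weeks of engraftment and 30 days of treatment, so it is unlikely to be their age at sampling. RNA came from whole BM or from cells of visceral adipose tissue that were sorted for the macrophage surface antigen encoded by Adgre1.

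These groups have limits as a model. LysM-Cre switches the mutation on in myeloid cells, the competitor cells are not mutant, and the labels name no donor for a single library, so the share of mutant cells behind a value is not known. WT and Vehicle differ in the recipient and, as far as the labels tell, in the injections, and both are contained in any difference between them. The descriptions of the study are not uniform for ATMs. There, 1 of them names WT donor cells for the group set against Vehicle and can be read as giving that group Ob/Ob recipients. Neither the donor nor the recipient of that group is therefore certain. The labels give no time after transplantation for WT, so the time may differ as well. The labels call the groups matched for sex, but the transcripts were not: raw counts of Xist, the RNA of the inactive X chromosome, were 3382 to 6250 in the BM libraries of Vehicle and Combo and 0 to 125 in those of the other 3 groups, and in ATMs they were 747 to 1400 and 0 to 53. The Y-linked Ddx3y gave the mirror image, with 143 to 655 counts in BM of Vehicle and Combo and 1437 to 2191 in the other groups. The sex make-up of the libraries and the group cannot be told apart in these comparisons. Depth, as total counts per library, was 31086184 to 39925495 for BM and 24876074 to 45300263 for ATMs. The labels speak of 3 mice per group for Vehicle and the treatments but do not say whether a library is 1 mouse or a pool. The p-values measure only the spread between the 3 libraries of a group. The coefficient of variation between libraries, fitted over all genes, was 3.51% in BM and 32.5% in ATMs. Whether this spread holds the variation between mice is not known, so the p-values cannot be read as a measure of that variation.

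The sorted cells also differed in make-up. In ATM libraries, the summed level of 7 neutrophil markers was 20939 to 22177 CPM, counts scaled to a common library total, in Vehicle and 12176 to 12514 in Combo, against 171 to 390.4 in WT, GLP1RA and antiIL17A. Adgre1, whose product was used for the sort, had a mean normalized read count of 1404 in Vehicle, 6913 in WT, 12939 in GLP1RA, 29035 in antiIL17A and 13285 in Combo. Csf1r, the receptor for macrophage colony-stimulating factor, was likewise lowest in Vehicle at 1579, against 18149.8 in WT. Markers of endothelial and stromal cells summed to 6390.2 to 22277 CPM and exceeded the 8 monocyte and macrophage markers, at 2525 to 13034 CPM, in each of the 5 groups. Adipocyte markers summed to 314 to 387 CPM in Vehicle, 564 to 576 in WT and 1828 to 3614 in the treated groups. Pancreatic acinar markers summed to 836 to 855 CPM in Combo, with all 6 called higher than in Vehicle, and to 7.61 to 27 CPM in the other groups, where 2 or 3 of the 6 were at 0. The part of these markers in the ATM differences was not tested, and the ATM libraries are described by their label, not as pure macrophages. In BM the same neutrophil markers summed to 76015 to 128808 CPM. Their group means were 128049 in Combo, 117787 in Vehicle, 105012 in WT, 90443 in antiIL17A and 76251 in GLP1RA. The median log2 fold change of this list was -0.26 in Vehicle vs WT, with 0 of 7 called higher and 1 lower. It was 0.044 in Combo vs Vehicle, with 3 called higher and 0 lower. Of all genes, 9.44% and 10% were called higher and lower in Vehicle vs WT, and 6.58% and 11.1% in Combo vs Vehicle. B cell markers were highest in WT, at 1227 to 1248 CPM against 117.2 to 404.5 in the other groups. The summed monocyte and macrophage markers were also highest in WT there, at 13041 to 13323 CPM against 3365 to 6596, a sum carried by Lyz2, which has a high level in neutrophils too and was lower in Vehicle (-1.90). Most of that list did not follow it: 4 of the 8 were called higher in Vehicle than in WT and only Lyz2 lower, with a median log2 fold change of 0.87. The part of these markers in the BM differences was not tested.

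**Figure D1:**
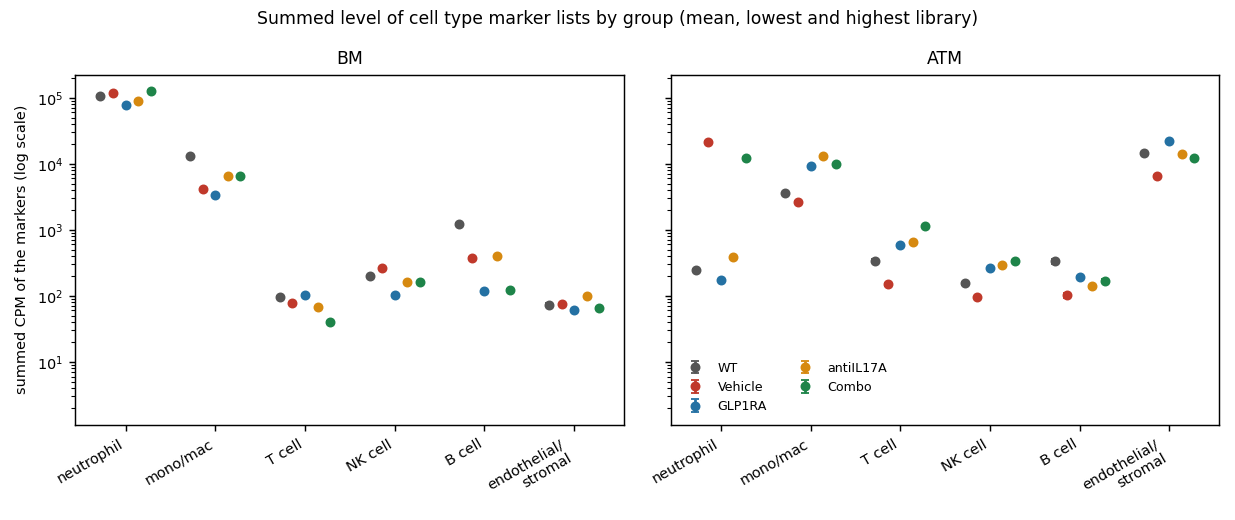
Summed CPM of 6 lists of cell type markers (y axis, log scale) in BM (left) and ATM (right) libraries, with 1 point per group at the mean of its 3 libraries and bars from the lowest to the highest library. In ATM libraries the neutrophil markers are at 12176 CPM or more in Vehicle and Combo and at 390.4 CPM or less in the other groups, while the T cell and NK cell markers are lowest in Vehicle.

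STAT proteins wait in the cytoplasm until a cytokine binds its receptor. Janus kinases (JAKs) bound to the receptor then phosphorylate them, and paired STATs enter the nucleus and bind gene promoters, mostly at GAS elements, or, for the interferon complex of STAT2 with IRF9, at interferon-stimulated response elements (ISREs). The SOCS proteins and CIS, the product of Cish, are made as targets of these STATs and then block the receptor or the kinase, so their transcripts are commonly read as a sign of recent signaling. SHP2, the phosphatase altered in the donor cells, acts downstream of many of the same receptors, and leptin, which Ob/Ob mice lack, signals through STAT3.

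The promoters show which of these elements lie close to the start of each gene. Windows of 300 bases, from 250 before to 50 after each RefSeq gene start (build GRCm38.p6), were searched on both strands for TTCNNNGAA, for TTCNNNNGAA and for GAAANNGAAA. The first is the GAS core bound by most STATs and was held by 8.3% of all 32851 windows, the second is the wider spacing favored by STAT6 and was held by 6.95%, and the third is an ISRE core and was held by 3.44%. Of 12 windows for the 9 genes, 5 held at least 1 match. The 4 stretches shown are those around the matches of Stat2, Socs1, Socs3 and Cish. Stat2 had the widest range of group means in both tissues, and the others are the feedback inhibitors. Each stretch is written 5′ to 3′ on the strand of the gene, with the matches in capitals.
Stat2, chr10:128270251-128270322, plus strand: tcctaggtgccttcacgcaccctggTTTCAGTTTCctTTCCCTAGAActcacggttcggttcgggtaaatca
Socs1, chr16:10785579-10785644, minus strand: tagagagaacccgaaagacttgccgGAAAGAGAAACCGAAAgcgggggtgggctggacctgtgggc
Socs3, chr11:117969487-117969545, minus strand: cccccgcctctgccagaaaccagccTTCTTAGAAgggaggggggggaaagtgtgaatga
Cish, chr9:107296634-107296703, plus strand: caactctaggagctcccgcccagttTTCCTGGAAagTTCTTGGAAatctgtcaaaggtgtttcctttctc

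The Stat2 window held an ISRE core, read on the opposite strand, at positions -222 to -213 from the gene start, followed by a GAS core with the wider spacing at -210 to -201. Socs1 held overlapping ISRE cores that together spanned -83 to -68. Socs3 held a single GAS core at -154 to -146. In Cish, GAS cores lay at 1 to 9 and 12 to 20 after the RefSeq start, 2 bases apart. The other match was an ISRE core at -97 to -88 in the second of the windows of Stat4. No match was found in the windows of Stat3, Stat5a, Stat5b or Stat6. All these positions are counted from the RefSeq start. For Stat2, Socs3 and a window of Stat5b, the last bases of the window were in no GENCODE transcript of the gene. GENCODE starts Stat2 at chr10:128270559 and Socs3 at chr11:117970047, so distances from those starts differ. A match of letters does not show that a factor binds there.

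By position, 4 of the 9 genes lie on chromosome 11 and the STAT genes among them are neighbors. Stat5b (chr11:100780731-100850724, minus strand), Stat5a (chr11:100859351-100885169, plus strand) and Stat3 (chr11:100885098-100939540, minus strand) follow each other, and the ends of Stat5a and Stat3 share 72 exon bases on opposite strands. Counting ignored strand, so reads in these 72 bases were given to both genes, but they are only 1.01% of the exon bases of Stat5a and 0.756% of those of Stat3. The share was larger for Cish, where antisense genes cover 11.5% of the exon bases, and for Stat4, where 26.7% lie in the overlapping gene Gm28177, so values of these genes can contain reads of the other genes. Stat5a and Stat5b are close copies, and 8.21% and 11% of their 50-base stretches of transcript occur in both. The study counted uniquely mapped reads, so reads that lie wholly in such stretches may be missing from the counts of both genes.

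Per kilobase of exon, the order of the 9 genes was not the same in each tissue. In BM of WT mice, Stat6, which carries signals of IL-4 and IL-13, was highest at 41.2 CPM per kb, followed by Stat5b at 21.4 and Stat3 at 16.5, and Cish was lowest at 0.889. In ATMs of WT mice, Socs3 stood at 428.1 CPM per kb, above Stat6 at 47.4 and Stat3 at 31.9, and Stat2 was lowest at 4.63. Cish had 14.98 CPM per kb in ATMs of WT mice. Replicates were closer in BM, where the coefficient of variation of normalized counts was 0.341% to 11.3%, than in ATMs, where it was 0.478% to 24.2%.

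In BM, the Stat2 level of the Vehicle group stood apart from that of every other group. STAT2 is the interferon-specific STAT. Its normalized read counts (reads scaled to the mean TMM-adjusted library of the tissue) were 1790.3, 1796 and 1646 in the WT libraries and 15986, 16348 and 16169.9 in the Vehicle libraries. This was higher by 9.26-fold, with a log2 fold change of 3.21 ± 0.035 (SE), FDR = 2.84e-44, where FDR is the Benjamini-Hochberg adjusted p of edgeR's quasi-likelihood test over all genes of the table. In a bulk sample, more cells of a type that expresses a gene and more RNA per cell cannot be told apart. After treatment the counts were 1534, 1434 and 1461 in GLP1RA, 1409, 1500.4 and 1417 in antiIL17A and 1274, 1335 and 1261 in Combo. All 9 treated libraries lay below the lowest WT library, which had 1646, and the fall from Vehicle was 11-fold with GLP1RA, 11.2-fold with antiIL17A and 12.5-fold with Combo. GLP1RA and antiIL17A did not pass the test against each other (log2 difference -0.033 ± 0.039, 95% interval -0.11 to 0.045), whereas Combo was lower than antiIL17A by a small amount (-0.16 ± 0.04, FDR = 7.06e-04).

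Stat3, the STAT of IL-6, G-CSF and leptin receptors, was the other STAT gene called in BM. Normalized counts were 5543, 5459 and 5382 in WT and 11310.5, 11341 and 11265 in Vehicle, a log2 fold change of 1.05 ± 0.025 (SE), FDR = 2.99e-32. Its means were 7742 in GLP1RA and 8279.6 in antiIL17A, between WT and Vehicle, and neither difference from Vehicle reached the limit of a log2 fold change of 1 (-0.55 ± 0.024 and -0.45 ± 0.024). With Combo the counts were 11797, 12002 and 11683, all above the highest Vehicle library of 11341. Stat3 therefore ended 2.17-fold higher in Combo than in WT (FDR = 7.75e-33), and the order of its group means in BM was Combo, Vehicle, antiIL17A, GLP1RA and WT, with the other neighboring pairs past the test. The step from Vehicle to Combo was small (0.065 ± 0.024 (SE), FDR = 0.0153). It missed the FDR threshold with DESeq2 size factors, library size alone, at least 10 counts in every library or DESeq2 (FDR = 0.0504 to 0.126), without Vehicle replicate 3 (0.018, FDR = 0.57) and without Combo replicate 2 (FDR = 0.077).

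The remaining STAT genes moved little in BM. Stat4, which transmits IL-12 signals, had means of 1208 in WT and 1274 in Vehicle (0.077 ± 0.05 (SE), FDR = 0.156) and its lowest mean, 917, in GLP1RA. Stat5a, which serves IL-3, GM-CSF and related receptors, lay between 1561 in WT and 1973 in GLP1RA. Stat5b, its close copy, was lowest in Vehicle at 3755 and highest in antiIL17A at 5215, a log2 difference of 0.47 ± 0.032. Stat6 was lowest in GLP1RA at 4585 and highest in Combo at 7183. None of these 4 genes was called in any of the 5 main comparisons in BM, where the FDR alone was passed by 72.8% to 76.6% of all genes.

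All 3 feedback inhibitors rose in BM of Vehicle mice. Socs1, which blocks JAKs downstream of interferon receptors, had normalized counts of 210.4, 232 and 233 in WT and 975, 855 and 929 in Vehicle, 4.09-fold higher (log2 fold change 2.03 ± 0.089 (SE), FDR = 5.97e-23). In the treated groups, Socs1 stood at 217, 208 and 214 with GLP1RA, at 151, 129 and 148 with antiIL17A and at 121, 152 and 139 with Combo. The GLP1RA values overlapped those of WT (log2 difference -0.079 ± 0.10, FDR = 0.483), and those of antiIL17A and Combo lay below WT (-0.65 ± 0.11 and -0.71 ± 0.11). Socs1 and Cish had the fewest counts of the 9 genes in BM and the largest SEs of these fold changes.

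Socs3, the inhibitor of IL-6 and G-CSF receptor signaling, rose 2.4-fold, from 1032, 960.1 and 835 in WT to 2251, 2305 and 2263 in Vehicle (log2 fold change 1.26 ± 0.052 (SE), FDR = 7.00e-24). It was 1129.7, 1167 and 1137 with GLP1RA, and the difference from Vehicle of -0.99 ± 0.051 lay just inside the fold-change limit. It was 1290.1, 1258 and 1371 with antiIL17A and 2048, 2052 and 2111 with Combo. Combo was thus close to Vehicle, with a log2 difference of -0.13 ± 0.048 (FDR = 0.0123), and 2.19-fold above WT (FDR = 3.51e-22). Socs3 and Stat3 had this in common: both were called higher in Combo than in WT, and they were the only members so called. The summed neutrophil markers of BM were likewise highest in Combo and Vehicle, at means of 128049 and 117787 CPM. WT, where both genes were lowest, had 105012 CPM, above antiIL17A and GLP1RA. The part of these markers in the values of both genes was not tested.

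Cish, whose product competes with STAT5 at receptors, was 184, 196 and 215 in WT and 576, 597 and 541 in Vehicle, 2.89-fold higher (log2 fold change 1.53 ± 0.088 (SE), FDR = 7.21e-19). Means of 315, 288 and 318 followed in GLP1RA, antiIL17A and Combo, between WT and Vehicle. Each decrease from Vehicle passed the FDR but not the fold-change limit (-0.86 ± 0.083, -0.99 ± 0.084 and -0.85 ± 0.084). The 3 treated groups did not pass the test against each other, with FDR values of 0.197, 0.896 and 0.174.

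**Figure D2:**
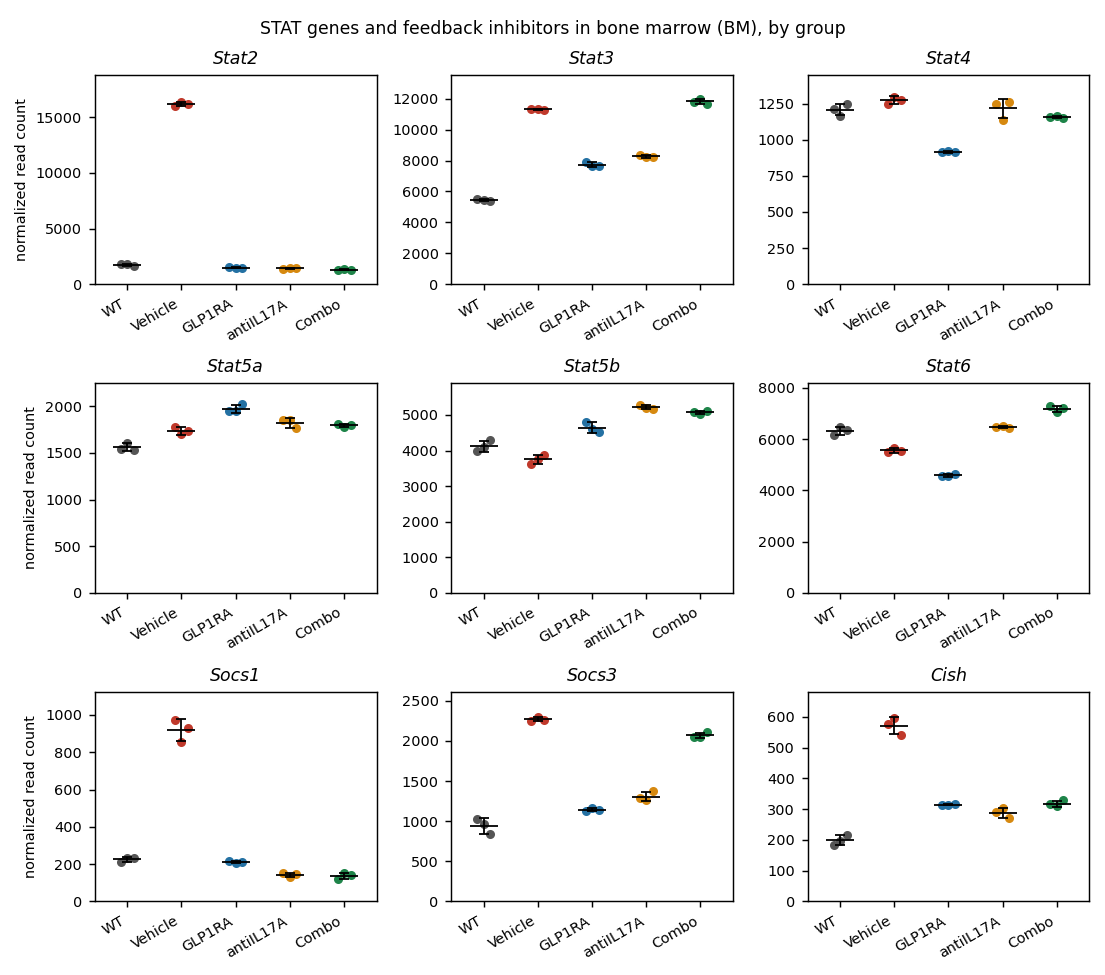
Normalized read counts (y axes, from 0) of the 9 genes in BM, with 1 colored point per library, and the mean and SD of the 3 libraries of each group as a black bar. Stat2 and Socs1 stand high in Vehicle alone, with every other library of Stat2 at 1796 or less, and Stat3 and Socs3 are high in Vehicle and in Combo.

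Counted with the call rule of FDR below 0.05 and an absolute log2 fold change above 1, 5 of 9 genes were higher and 0 lower in BM of Vehicle than of WT, where 9.44% and 10% of all genes tested were called higher and lower. The 5 were Stat2, Stat3, Socs1, Socs3 and Cish. Scaled by library size alone, which moved the median of all genes by -0.12, Stat3 gave 0.92 and the count was 4. With GLP1RA, 0 were higher and 2 lower than in Vehicle, beside 7.6% and 9.08% of all genes. The counts were 0 and 2 with antiIL17A, beside 7.65% and 8.46%, and 0 and 2 with Combo, beside 6.58% and 11.1%. The genes called lower were Stat2 and Socs1 in each of these comparisons, which share the Vehicle libraries. Between Combo and WT, 2 were higher and 0 lower, beside 4.4% and 9.93%. Scaled by library size alone, which moved the median of all genes by -0.15 in this comparison, Stat3 and Socs3 gave 0.97 and 0.98 and neither was called. The FDR alone was passed by 8, 9, 7, 8 and 8 of the 9 genes in these comparisons, in the order given, beside 76.6%, 72.8%, 73%, 73.8% and 73.3% of all genes, so these counts stand close to the share of all genes.

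The 4 Ob/Ob groups allow the effect of both agents to be set against the sum of the single effects on the log2 scale. In BM, Combo lay above that sum by 3.29 ± 0.05 for Stat2 (FDR = 5.03e-38) and by 2.06 ± 0.15 for Socs1 (FDR = 1.10e-15), genes that each single agent had already brought to or below the WT level. It also lay above by 1.65 ± 0.07 for Socs3, by 1.06 ± 0.03 for Stat3, by 1.00 ± 0.12 for Cish, by 0.43 ± 0.04 for Stat6 and by 0.40 ± 0.07 for Stat4. For Stat5a and Stat5b it lay below, at -0.20 ± 0.06 and -0.35 ± 0.05. All 9 departures passed the FDR alone, as did 68.6% of all genes. The tests of these sums again share the Vehicle libraries.

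In ATMs, Stat2 was again high in Vehicle alone. Its normalized counts were 857, 937 and 938 in WT and 9159, 9253 and 7813 in Vehicle, 9.59-fold higher (log2 fold change 3.26 ± 0.14 (SE), FDR = 1.17e-11). They were 1216, 1166 and 1228 in GLP1RA, 1102, 755 and 1095 in antiIL17A and 1159, 1019 and 1289.6 in Combo. The falls from Vehicle were 7.26-fold, 8.88-fold and 7.56-fold. The summed neutrophil markers were high in Vehicle and in Combo. Their part in the Stat2 values was not tested.

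Stat3 was high in ATMs of both Vehicle and GLP1RA. Its counts were 9667, 10295 and 10272 in WT, 20751, 23406 and 20176 in Vehicle and 22093, 23804 and 23657 in GLP1RA, and the last of these overlapped Vehicle (log2 difference 0.11 ± 0.058 (SE), FDR = 0.117). They were 11321, 10625 and 10343 in antiIL17A and 9191, 9785 and 8868 in Combo. The rise in Vehicle over WT was 2.13-fold (log2 fold change 1.09 ± 0.059 (SE), FDR = 2.63e-10). Combo was 2.31-fold below Vehicle (FDR = 9.27e-11), and antiIL17A, at -0.99 ± 0.059, missed the fold-change limit narrowly. Neither Combo nor antiIL17A passed the test against WT.

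Stat4 and Stat5a were highest in GLP1RA. Stat4, typical of T and NK cells, had counts of 700.3, 879 and 688 in WT, 942, 1402 and 944 in Vehicle and 3624, 3503 and 3913 in GLP1RA, and means of 1579 in antiIL17A and 1367 in Combo. It rose 3.36-fold with GLP1RA (log2 fold change 1.75 ± 0.16 (SE), FDR = 1.41e-07). Summed T cell markers were 143 to 159 CPM in Vehicle, 577 to 611 in GLP1RA, 629.8 to 656 in antiIL17A and 1121 to 1148 in Combo. NK cell markers were 92.1 to 97.7, 264 to 269, 272 to 304 and 329.7 to 346 CPM in these groups, in the same order. The part of these markers in the rise of Stat4 was not tested. Stat5a counts were 1009.9, 1157 and 901 in Vehicle and 2484, 2288 and 2194 in GLP1RA, 2.27-fold higher (log2 fold change 1.18 ± 0.11 (SE), FDR = 2.79e-07), and in antiIL17A they overlapped Vehicle. Stat5b followed at 1851 in Vehicle and 3167 in GLP1RA (0.78 ± 0.12 (SE), FDR = 5.84e-05), short of the fold-change limit. Stat6 was the steadiest gene, with group means from 5824 in Vehicle to 7319.8 in GLP1RA.

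Socs1 in ATMs was lower in every treated group than in Vehicle or WT. Its counts were 1358, 1244 and 1208 in WT and 1779, 1832 and 1872 in Vehicle, with no overlap but a log2 fold change of only 0.53 ± 0.11 (SE), FDR = 8.58e-04. They were 679.9, 719 and 759 in GLP1RA, 678, 608 and 629 in antiIL17A and 628, 738 and 592 in Combo. The falls from Vehicle were 2.54-fold, 2.86-fold and 2.8-fold, and the 3 treated groups did not pass the test against each other.

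Socs3 ran the other way from BM. Its counts were 40289, 41724 and 41203 in WT and 16403, 15009 and 14816 in Vehicle, 2.67-fold lower (log2 fold change -1.41 ± 0.04 (SE), FDR = 8.04e-14). GLP1RA was between these, at 27094, 26588 and 27198, and the change from Vehicle was 0.81 ± 0.04, inside the fold-change limit. Scaled by library size alone, which moved the median of all genes by 0.22, this change was 1.02 and was called. Counts were 12933, 12849.7 and 12970.3 in antiIL17A and 15154, 14330.5 and 15422 in Combo. Combo overlapped Vehicle (log2 difference -0.042 ± 0.04 (SE), FDR = 0.42) and was 2.74-fold below WT (FDR = 1.89e-13). Adgre1 and Csf1r also fell in Vehicle relative to WT, with log2 fold changes of -2.30 and -3.52. Their part in the Socs3 values was not tested. Cish did not pass the test between Vehicle and WT (0.054 ± 0.12 (SE), FDR = 0.722), the 3 Vehicle libraries spanning 2652 to 3939, and its lowest group was antiIL17A at 2094, 1752 and 2035, 1.69-fold below Vehicle (FDR = 5.70e-05) and short of the fold-change limit.

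**Figure D3:**
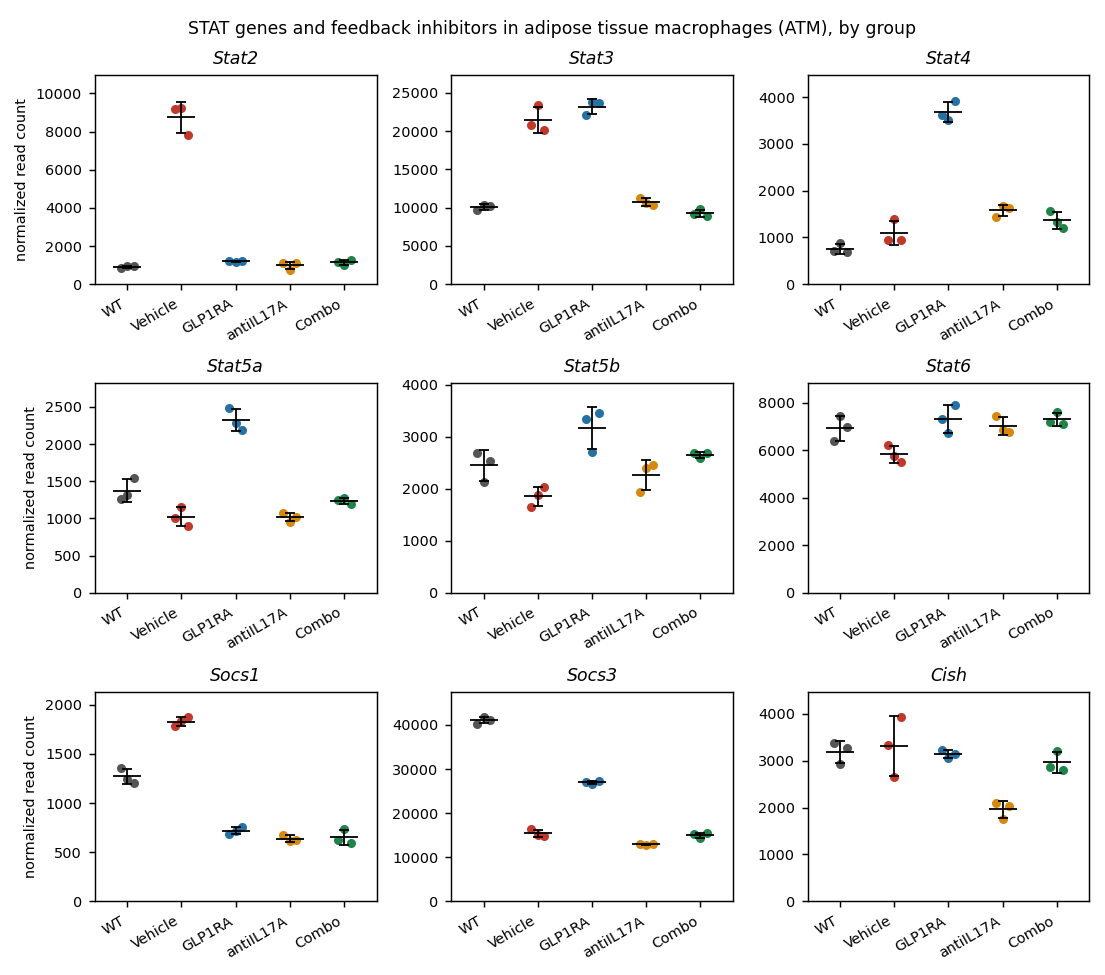
Normalized read counts (y axes, from 0) of the 9 genes in ATM libraries, with 1 colored point per library, and the mean and SD of the 3 libraries of each group as a black bar. Stat2 is high in Vehicle alone, Stat3 is high in Vehicle and GLP1RA, Stat4 and Stat5a are highest in GLP1RA, and Socs3 is highest in WT.

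By the same call rule, 2 of 9 genes were higher (Stat2 and Stat3) and 1 lower (Socs3) in ATMs of Vehicle than of WT, where 12.5% and 22.9% of all genes were called higher and lower. With GLP1RA, 2 were higher (Stat4 and Stat5a) and 2 lower (Stat2 and Socs1) than in Vehicle, beside 20.8% and 10.9%. With antiIL17A, 0 were higher and 2 lower (Stat2 and Socs1), beside 22.4% and 13.1%. With Combo, 0 were higher and 3 lower (Stat2, Stat3 and Socs1), beside 14.1% and 12.2%. Between Combo and WT, 0 were higher and 1 lower (Socs3), beside 7.08% and 14.5%, and without Combo replicate 2 the latter count was 2, with Socs1 at -1.06. Scaled by library size alone, Stat3 gave 0.65 in Vehicle vs WT and -0.79 in Combo vs Vehicle and was no longer called, and Socs3 gave 0.38 in Combo vs Vehicle, against -0.042. Combo departed from the sum of the single effects by 3.09 ± 0.18 for Stat2, by 1.38 ± 0.16 for Socs1, by -1.96 ± 0.22 for Stat4 and by -0.90 ± 0.16 for Stat5a. The departure of Cish was 0.67 ± 0.17, and those of Stat3, Stat5b, Stat6 and Socs3 lay between -0.59 and -0.27. All 9 passed the FDR alone, as did 50.5% of all genes. In the 5 comparisons, in the order given, the FDR alone was passed by 8, 7, 7, 5 and 4 of the 9 genes, beside 56.9%, 53.8%, 58.1%, 48.7% and 41.1% of all genes.

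**Figure D4:**
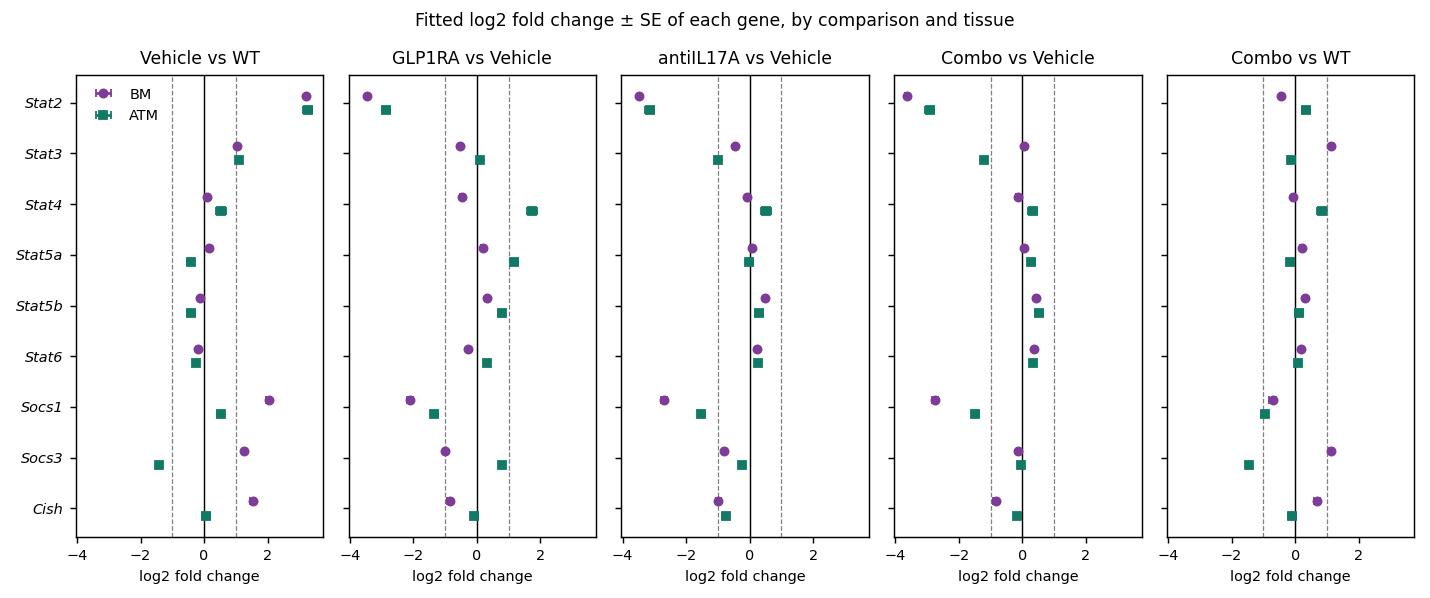
Fitted log2 fold change (x axis) with its SE for each of the 9 genes in 5 comparisons, for BM (circles) and ATM (squares) libraries, with dashed lines at the limits of -1 and 1. Stat2 lies at 3.21 in BM and 3.26 in ATMs in Vehicle vs WT and at -2.86 or lower in each comparison of a treatment with Vehicle, and Socs3 in Vehicle vs WT lies on opposite sides of 0.

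The difference between the tissues was tested directly, as the BM effect minus the ATM effect in a fit of all 30 libraries and 13076 shared genes. For Vehicle vs WT, 5 of 9 genes passed an FDR of 0.05, beside 56% of all genes, and for Combo vs Vehicle 5 of 9 passed, beside 55.1%, so a tissue difference was as common among the 9 genes as among all genes. Socs3 differed most, by 2.68 ± 0.07 (FDR = 1.67e-21) in Vehicle vs WT, followed by Socs1 at 1.504 ± 0.14 and Cish at 1.47 ± 0.15, so that the 3 inhibitors were all more positive in BM. The STAT genes Stat2 and Stat3 gave -0.052 ± 0.14 and -0.042 ± 0.06, with FDR values of 0.765 and 0.597. For Combo vs Vehicle, Stat3 differed by 1.23 ± 0.06 (FDR = 4.26e-15), with 0.065 ± 0.024 in BM and -1.21 ± 0.059 in ATMs, and Socs1 by -1.29 ± 0.15 (FDR = 2.75e-08). Sorted cells and whole marrow also differ in how they were obtained, which cannot be told apart from tissue.

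The kinases and receptors upstream of the STATs were read from lists of the pathway's other genes. The lists were chosen with earlier results of these data known, and counts from them are a description. In BM, Jak3, the kinase of the common gamma chain, rose from a mean of 742 in WT to 3412 in Vehicle (log2 fold change 2.20 ± 0.049 (SE), FDR = 2.22e-33), fell to 917 with GLP1RA and 1180.0 with antiIL17A, and was 2423 with Combo, 1.71 on the log2 scale above WT. Jak1, Jak2 and Tyk2, the more widely expressed JAKs, were not called in Vehicle vs WT in BM (-0.25, 0.66 and 0.35). None of the 4 JAKs was called in Vehicle vs WT in ATMs, where the values were -0.29 for Jak1, 0.94 for Jak2, 0.48 for Jak3 and -0.35 for Tyk2. There, Jak2 was called lower with antiIL17A (-1.001 ± 0.15 (SE), FDR = 3.30e-05).

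Of 30 receptor genes, 9 were higher and 3 lower in BM of Vehicle than of WT, beside 9.44% and 10% of all genes, and 8 and 2 in ATMs, beside 12.5% and 22.9%. Il12rb1 and Il12rb2, which form the IL-12 receptor upstream of STAT4, were higher in BM by 3.16 ± 0.12 and 2.71 ± 0.18, and Lepr, the leptin receptor, was lower, at -1.94. In ATMs Il3ra, the IL-3 receptor chain, was higher by 2.47 ± 0.12 and Il13ra1, a receptor chain for IL-13, by 2.01 ± 0.15. With Combo, Il12rb2 fell by 3.38 and Il2rg, the common gamma chain, by 2.55 on the log2 scale in BM, and 8 receptor genes in all were lower and 1 higher than in Vehicle, beside 11.1% and 6.58% of all genes. In ATMs, Combo had 3 higher and 5 lower receptor genes, beside 14.1% and 12.2% of all genes and so near these shares, with Lepr at -2.86 ± 0.23 and Il27ra, the IL-27 receptor, at 2.46 ± 0.20.

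Of 24 ligand genes, 9 were in the BM table, of which 5 were higher and 0 lower in Vehicle than in WT, beside the same 9.44% and 10%. No gene of that table had fewer than 55 counts over its 15 libraries. Ligands low in every group are therefore missing, others may be in it only through a group where they are high, and the counts are a description. The 5 higher ligands include Lif at 5.53 ± 0.37, Il10 at 5.44 ± 0.38 and Il6 at 3.23 ± 0.20, which signal mainly through STAT3. Lif and Il10 had at most 7 and 4 raw counts in a WT library, so the size of their changes is poorly known. Of the 21 ligands in the ATM table, 11 were higher and 0 lower, among them Ifnb1, interferon beta, with means of 58.2 in WT and 1353 in Vehicle (4.54 ± 0.35 (SE), FDR = 1.90e-08), and Il27 at 5.52 ± 1.01. With Combo, 7 of 9 ligands were lower than in Vehicle in BM and 10 of 21 in ATMs, beside 11.1% and 12.2% of all genes. Higher were 0 and 1, beside 6.58% and 14.1%, and these counts too are a description. Il6 fell from 18427 to 1121 in ATMs (-4.04 ± 0.087 (SE), FDR = 4.67e-15), and Csf3, encoding G-CSF, from 6452 to 456.

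Other inhibitors of the pathway were listed as well. Of 15 such genes, 1 was higher and 1 lower in BM of Vehicle than of WT, near the 9.44% and 10% of all genes, namely Ptpn1, a phosphatase acting on JAKs, at 1.30 ± 0.025, and Socs5 at -1.60 ± 0.13. In ATMs 1 was higher and 0 lower, beside 12.5% and 22.9%, Ptpn1 at 1.31 ± 0.068. With Combo, Socs2, which is induced by STAT5 and restrains growth hormone signaling, was lower in BM (-1.66 ± 0.15) and in ATMs (-1.76 ± 0.13), and Ptprc, encoding CD45 and present on all leukocytes, was higher in ATMs (2.22 ± 0.084).

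Known targets were counted for each STAT. These lists too were chosen with earlier results of these data known, so their counts are a description. All 10 targets of STAT2 with IRF9 were higher in Vehicle than in WT in both tissues, with a median log2 fold change of 4.51 in BM and 5.045 in ATMs, where the medians over all genes were -0.017 and -0.21. Of all genes, 9.44% in BM and 12.5% in ATMs were called higher. Isg15, a ubiquitin-like interferon-induced protein, had means of 1004 in WT and 32771 in Vehicle in BM (5.03 ± 0.038 (SE), FDR = 8.68e-47), and Ifit3, which binds viral RNA complexes, had 1793 and 83169.8 in ATMs (5.54 ± 0.088 (SE), FDR = 8.60e-17). The same 10 were all lower than in Vehicle after each of the 3 treatments in both tissues, beside 8.46% to 11.1% of all genes in BM and 10.9% to 13.1% in ATMs. In BM, 9 of 10 were also lower in Combo than in WT, with a median of -1.94, and in ATMs 2 of 10, with a median of -0.24. The shares of all genes were 9.93% and 14.5%, and the count in ATMs is near its share. Isg15 stood at 181 with Combo in BM, and Ifit3 at 69.8.

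Of 10 targets of STAT3, 6 were higher and 0 lower in Vehicle than in WT in each tissue, with medians of 1.39 in BM and 1.32 in ATMs. The shares of all genes called higher and lower were 9.44% and 10% in BM and 12.5% and 22.9% in ATMs. Saa3, an acute-phase protein, had means of 21.2 in WT and 73246 in Vehicle in BM, and 206 and 112558 in ATMs, wider than for any other target gene listed. Lcn2, a neutrophil granule protein and acute-phase protein, had 1376 and 128319 in ATMs, where the summed neutrophil markers were higher in Vehicle too, at means of 242 and 21650 CPM. From Vehicle to Combo Lcn2 fell to 26967 (-2.25 ± 0.072), while those markers had a median log2 fold change of -0.67. Their part was not tested. With Combo, 2 of 10 targets fell from Vehicle in BM (Saa3 and Il1rn) and 5 in ATMs, beside 11.1% and 12.2% of all genes. Against WT in BM, Combo had 4 of 10 higher and 1 lower, beside 4.4% and 9.93%, so the 1 lower is near the share of all genes. The medians against Vehicle were -0.21 in BM and -1.03 in ATMs.

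The other lists were mixed, and for Vehicle vs WT the shares of all genes called higher and lower stood at 9.44% and 10% in BM and at 12.5% and 22.9% in ATMs. Of 10 targets of STAT5, 4 were higher and 0 lower in BM of Vehicle than of WT, and 2 and 0 in ATMs, among them Pim1, a survival kinase also listed for STAT3, at 1.42 ± 0.029 in BM, and Osm, encoding oncostatin M, at 3.18 ± 0.11 in ATMs. Of 8 targets of STAT4, 3 were higher and 0 lower in BM, and 5 and 1 in ATMs. In ATMs with GLP1RA, where Stat4 rose, 3 of these were higher and 1 lower than in Vehicle (20.8% and 10.9% of all genes), with a median of 0.74, and with Combo 4 were higher and 2 lower (14.1% and 12.2%), including Ifng, interferon gamma, which went from 486 to 1966 (2.01 ± 0.18 (SE), FDR = 1.05e-07). In BM, Ifng fell with Combo, from 129.5 to 4.15 (-4.92 ± 0.36 (SE), FDR = 1.66e-15). T and NK cell markers were lower there too, with 4 of 8 and 5 of 8 called and medians of -1.02 and -1.12, and summed to 78.4 to 79.3 and 257 to 262 CPM in Vehicle and to 38.5 to 42.3 and 159 to 162 CPM in Combo. In ATMs, where Ifng was higher, all 8 T cell and 5 of 8 NK cell markers were called higher with Combo. The part of these cells in the Ifng values was not tested. Of the targets of STAT6, 7 of 10 were in the BM table, of which 5 were higher and 1 lower in Vehicle than in WT. As for the ligands, targets low in every group are missing there, and others may be present only through a group where they are high. Arg1, for example, had means of 13.6 in WT, 2494 in Vehicle and 6.94 in Combo. The BM counts of this list are therefore a description. In ATMs 3 were higher and 4 lower, with Chil3 at 6.33 ± 0.13 and Retnla, a marker of alternatively activated macrophages, at -5.63 ± 0.065, from a mean of 61185 to 1234. Chil3 is also abundant in neutrophils, whose markers were high in Vehicle. Genes listed for more than 1 role (Socs2, Il12rb2, Il4ra, Il2ra, Ifng, Osm, Pim1 and Bcl6) were counted in each.

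**Figure D5:**
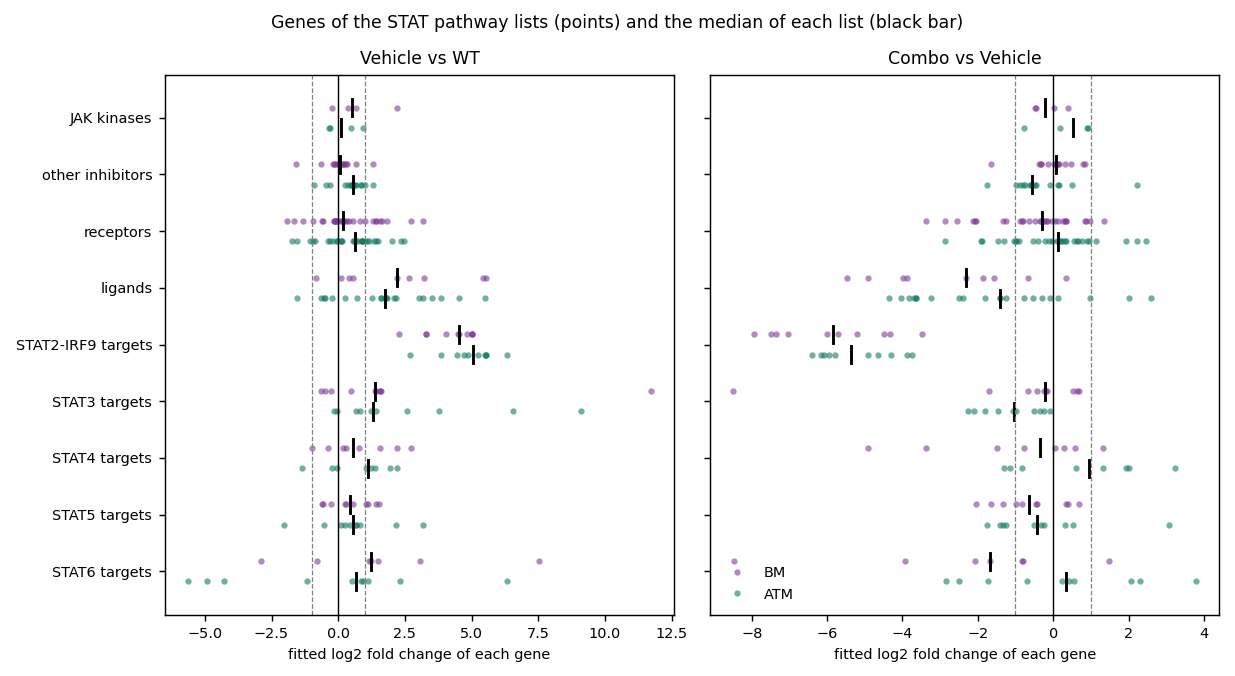
Fitted log2 fold change (x axes) of each gene (points) of 9 lists of the JAK-STAT pathway for Vehicle vs WT (left) and Combo vs Vehicle (right), in BM and ATM libraries, with the median of a list as a black bar and dashed lines at -1 and 1. All targets of STAT2 with IRF9 lie at 2.27 (Oasl2 in BM) or higher on the left and at -3.49 (Oasl2 in BM) or lower on the right, while the other lists span 0 or have members close to it.

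Stat2 had the widest range of group means in both tissues, 3.65 on the log2 CPM scale in BM and 3.26 in ATMs, and the genes most like it across 15 libraries were sought as a description. In BM, among 10576 genes averaging 100 counts or more, the highest Pearson r with Stat2 were those of Tap1 (0.9988), which carries peptides for antigen presentation, Ifih1 (0.9982), a sensor of viral RNA, and Cfb (0.9969), a complement factor. In ATMs, among 12612 genes, they were March5 (0.9923), a mitochondrial ubiquitin ligase, Azi2 (0.9899), an adaptor of interferon induction, and 1810011O10Rik (0.9894). These points share the group structure and the libraries, and 1 group that stands high is enough to give such values.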

How the data were processed

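Poly(A) RNA of 15 BM and 15 ATM libraries was sequenced as unstranded paired-end reads. The authors aligned the reads with STAR 2.7.2a to mm10 and counted them per gene with featureCounts 2.0.1, without strand and giving reads on overlapping genes to each gene, and deposited raw counts. Groups were taken from the labels. Members and gene lists were chosen with earlier results of these data known.

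Each tissue was fitted with edgeR 4.0.16 (R 4.3.3) by the quasi-likelihood test with TMM scaling, all 15 libraries in 1 fit. Genes with a Benjamini-Hochberg FDR below 0.05 and an absolute log2 fold change above 1 were called. Filtering by expression removed no gene. The SE is the log2 fold change divided by the root of the F statistic. The tissue difference was fitted on all 30 libraries. Named genes were the 9 members, the 4 JAKs, up to 3 called genes per list and comparison with the largest change, no overlap between groups and a mean of at least 10 counts, and markers where a check needed them. Oasl2 was named after its values were seen. Fits were tested on simulated data. Alternatives used DESeq2 1.42.0, limma 3.58.1, other scalings and filters, a replicate block and leaving out libraries. Promoter windows came from RefSeq (GRCm38.p6) and gene positions from GENCODE (GRCm38).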

Additional observations from a re-analysis of the deposited data

Results flagged for a closer look

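By the test of the difference itself (BM effect minus ATM effect on the log2 scale, edgeR, adjusted over all shared genes), 5 of the 9 genes differed between BM and ATMs in Vehicle vs WT and 5 in Combo vs Vehicle. Of all shared genes, 56% and 55.1% did, so these counts are those of genes at large. For Vehicle vs WT the differences were 2.68 for Socs3, 1.504 for Socs1, 1.47 for Cish, 0.58 for Stat5a and -0.46 for Stat4. For Combo vs Vehicle they were 1.23 for Stat3, -1.29 for Socs1, -0.77 for Stat2, -0.73 for Cish and -0.50 for Stat4. The difference of Stat4 was the least stable. In Vehicle vs WT it missed the threshold without ATM WT replicate 1 (-0.41), without ATM WT replicate 3 (-0.39) and without ATM Vehicle replicate 2 (-0.27). In Combo vs Vehicle it missed it without ATM Vehicle replicate 1 (-0.36), ATM Vehicle replicate 3 (-0.37) or ATM Combo replicate 1 (-0.39). Neutrophil markers and sex-linked transcripts also differed between these groups, and their part in the differences was not tested.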

How the results depend on the processing

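With no fold-change limit, which let 72.8% to 76.6% of all genes pass in BM and 41.1% to 58.1% in ATMs, more members passed: in BM 2 were lower in Vehicle vs WT, 2 higher and 7 lower with GLP1RA, 2 and 5 with antiIL17A, 3 and 5 with Combo, and 6 and 2 in Combo vs WT. In ATMs 4 were higher and 4 lower in Vehicle vs WT, 5 higher with GLP1RA, 2 and 5 with antiIL17A, 2 higher with Combo, and 2 and 2 in Combo vs WT. Library size alone left 4 members higher in BM in Vehicle vs WT, with Stat3 at 0.92, 0 in Combo vs WT and 1 in ATMs in Vehicle vs WT, and moved the median of all genes by -0.44 in the latter. In ATMs it brought Socs3 with GLP1RA past the limit (1.02) and Stat3 with Combo short of it (-0.79). It turned the sign in ATMs of Cish in Vehicle vs WT (-0.39), of Stat5a (0.33) and Socs3 (0.092) with antiIL17A, and of Socs3 with Combo (0.38). Leaving out 1 library gave 1 to 2 members lower in ATMs in Combo vs WT, 2 without Combo replicate 2, where Socs1 reached -1.06. Near the limit, Socs3 with GLP1RA in BM passed without Vehicle replicate 3 (-1.01) or GLP1RA replicate 2 (-1.004), Cish with antiIL17A in BM without Vehicle replicate 3 or antiIL17A replicate 2 (-1.03 each), and Stat3 with antiIL17A in ATMs without Vehicle replicate 1 (-1.02) or 3 (-1.05) or antiIL17A replicate 1 (-1.03). With DESeq2 size factors the tissue difference of Stat4 in Combo vs Vehicle was -0.39 and missed the threshold. The replicate numbers did not pair the samples: 0 of 30 same-numbered pairs per tissue had a correlation of deviations over 0.1, and with the replicate block 5 members were higher in BM in Vehicle vs WT, as without it, and no call changed. The causes were not tested.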
